A study of Rattus norvegicus with 8 samples.

Results

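The ATF4 and CHOP branch of the integrated stress response was followed through 9 genes, Atf4, Ddit3, Trib3, Chac1, Asns, Sesn2, Atf5, Eif2ak3 and Nupr1. Each row of the value table is a probe set, a group of short oligonucleotides read as 1 value. Members were taken by name, as the rows whose only gene symbol in the platform annotation was 1 of these 9. This gave 12 probe sets for the 9 genes, out of 31042 probe sets and 14217 genes on the array, with 3 probe sets for Trib3, 2 for Sesn2 and 1 for each other gene. All 12 are described, and no filter on low values was applied. The 9 genes were chosen with earlier results of these data known. RNA came from isolated hearts of male Wistar rats, whose age is not given in the sources used here. Each heart was perfused for 2 h through the aorta on a Langendorff apparatus with fluid that was not recirculated, either without drug (control, n = 4 hearts) or with 2 µM doxorubicin (n = 4 hearts), and was read on 1 array of its own. Doxorubicin is an anthracycline anticancer drug that intercalates into DNA and poisons topoisomerase II. A heart on this apparatus has no circulating blood and no nerve or hormone supply from the body, and the study holds 1 dose and 1 time. No heart was read before perfusion, so a gene said here to have fallen was lower than in control hearts perfused for 2 h. Its change from the level before perfusion was not measured.

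The integrated stress response is a shared reaction of cells to faulty protein folding, lack of amino acids, lack of heme or viral RNA. Each of these stresses activates a kinase that phosphorylates the initiation factor eIF2, which slows protein synthesis in general while the messenger RNA of the transcription factor ATF4 is translated more. ATF4 then switches on genes of amino acid supply and redox balance together with Ddit3, which encodes CHOP, a transcription factor linked to cell death when stress persists. In the heart the pathway has been studied in ischaemia, pressure overload and mitochondrial disease. The arrays measured RNA only, so neither phosphorylated eIF2 nor ATF4 protein was measured.

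After 2 h, 5 members were lower in doxorubicin than in control hearts, at 48.2% to 69.3% of control by the brightest probe set. They were the transcription factor genes Atf4 and Ddit3, the feedback gene Trib3, the glutathione-degrading enzyme gene Chac1 and the stress-inducible gene Sesn2. The kinase gene Eif2ak3, the transcription factor gene Atf5, the asparagine synthetase gene Asns and the cofactor gene Nupr1 did not pass the test. A probe set was called changed at an adjusted p under 0.05 (limma on log2 values, Benjamini-Hochberg over all 31042 probe sets). Of the 12 probe sets, 6 were called lower, where 1.52% of all probe sets were, and none was called higher, where 0.689% were. At an unadjusted limma p under 0.05, 8 of the 12 were lower and none was higher, beside 1814 lower and 2400 higher of all 31042. In the same 6 probe sets every doxorubicin heart lay below every control heart, which was so for 4.02% of all probe sets, while none of the 12 had every doxorubicin heart above every control heart (4.52% of all). The median difference over the 12 was -0.39 log2 beside -0.0019 over all probe sets. In a piece of heart muscle, fewer cells of a type and less RNA per cell cannot be told apart.

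Tissue markers and array controls were read in the same hearts. All 6 measured cardiomyocyte markers were bright (means of 13.7 to 14.1 log2), with summed intensities of 89973 to 91621 in control and 89981 to 94300 in doxorubicin hearts. Among the markers measured for 9 cell types, Tie1, an endothelial gene, was called higher (0.34 log2) and none lower. The 6 macrophage markers summed to 528 to 672 in control and 623 to 821 in doxorubicin hearts (exact permutation p = 0.229). The level of 18 hybridization control probe sets, for bacterial and phage RNA spiked into every sample, was 10.2 to 10.6 log2 in control and 9.97 to 10.1 log2 in doxorubicin arrays, with no overlap. With this level as a covariate 1 of the 6 called probe sets, Ddit3, stayed called (-1.10, adjusted p = 0.00906). Atf4 (-0.56, adjusted p = 0.19), the brightest Trib3 probe set (-0.90, 0.148), Chac1 (-1.26, 0.2) and Sesn2 (-0.77, 0.303) then had values below 0 without passing, while the second Trib3 probe set moved to -0.34 (adjusted p = 0.861). Without the covariate the differences were -0.53 for Atf4, -0.83 for the brightest Trib3 probe set, -1.05 for Chac1, -0.60 for Sesn2 and -0.56 for the second Trib3 probe set. As the level did not overlap between the groups, its part and that of the drug could not be cleanly told apart in this fit. The part of the hybridization level in these results was not tested further.

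The rule did not read promoter sequence, but the members were named as genes of the ATF4 pathway and several are known ATF4 targets. The share of members with an element bound by ATF4 is therefore not an independent result. Sequences are shown for 4 members: Ddit3, Trib3 and Chac1, which were called lower, and Nupr1, which did not pass. ATF4 binds as a dimer with C/EBP factors to an element with the core TGATGNAA. This core, searched on both strands, was in 3.98% of 33469 promoters of the same length (RefSeq, GRCr8 assembly, 250 bases before to 50 after the annotated start of the gene). Among the 9 members it was in 3, Trib3, Chac1 and Nupr1. Trib3 and Chac1 were called lower, and Nupr1 stood at 0.64 log2 without passing. In all 3 promoters it lay on the strand opposite to the gene, so the sequences here show its reverse complement. The cAMP response element TGACGTCA was in none of the 9 and in 1.83% of all promoters. The AP-1 element TGANTCA, bound by Fos and Jun proteins, was in the Ddit3 and Atf5 promoters and in 7.33% of all. Ddit3 was called lower, while Atf5, whose sequence is not shown, stood at -0.10 log2 without passing. None of the 3 motifs was in the 300-base windows of Atf4 and Sesn2, which were called lower, or of Asns and Eif2ak3, which were not. A match is a run of letters, not a shown binding site, the annotated start may not be the one used in heart, and a motif outside the window is not seen. The 4 promoters lie at chr7:65001445-65001744 (forward strand) for Ddit3, chr3:161275484-161275783 (reverse strand) for Trib3, chr3:126795881-126796180 (forward strand) for Chac1 and chr1:190645852-190646151 (reverse strand) for Nupr1. They are written 5′ to 3′ along the gene, with the C/EBP-ATF core in capitals in Trib3, Chac1 and Nupr1 and the AP-1 element in capitals in Ddit3.
Ddit3: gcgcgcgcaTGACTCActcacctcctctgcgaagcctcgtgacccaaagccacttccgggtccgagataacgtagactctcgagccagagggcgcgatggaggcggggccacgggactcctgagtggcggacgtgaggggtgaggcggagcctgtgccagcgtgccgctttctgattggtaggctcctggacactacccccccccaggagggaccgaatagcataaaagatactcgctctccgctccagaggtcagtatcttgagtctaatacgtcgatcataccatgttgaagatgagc
Trib3: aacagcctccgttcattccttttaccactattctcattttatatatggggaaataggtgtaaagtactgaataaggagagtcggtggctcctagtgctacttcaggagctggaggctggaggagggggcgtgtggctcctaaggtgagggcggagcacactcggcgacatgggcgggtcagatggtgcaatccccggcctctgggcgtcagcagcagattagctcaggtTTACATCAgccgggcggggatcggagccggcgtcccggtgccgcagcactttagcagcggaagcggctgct
Chac1: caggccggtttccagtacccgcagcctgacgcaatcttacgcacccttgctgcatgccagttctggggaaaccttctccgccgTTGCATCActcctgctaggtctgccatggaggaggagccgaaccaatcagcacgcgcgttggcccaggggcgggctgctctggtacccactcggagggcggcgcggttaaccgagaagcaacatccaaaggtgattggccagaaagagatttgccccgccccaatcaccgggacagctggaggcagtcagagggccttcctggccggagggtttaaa
Nupr1: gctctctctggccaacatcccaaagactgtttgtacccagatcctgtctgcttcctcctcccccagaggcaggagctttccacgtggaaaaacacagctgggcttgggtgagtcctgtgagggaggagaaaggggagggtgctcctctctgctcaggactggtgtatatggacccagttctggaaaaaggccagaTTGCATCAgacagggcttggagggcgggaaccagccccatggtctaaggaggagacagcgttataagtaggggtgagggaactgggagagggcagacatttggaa
Counted from the annotated start, the C/EBP-ATF core began at base -21 in Trib3, -167 in Chac1 and -55 in Nupr1. Chac1 and Nupr1 carried the same 8 letters, TTGCATCA, and Trib3 carried TTACATCA. The AP-1 element of Ddit3 began at base -241.

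Eif2ak3 encodes PERK, the eIF2 kinase that senses unfolded protein in the endoplasmic reticulum. Its log2 intensities were 5.39, 5.48, 5.57 and 5.53 in control hearts 1 to 4 and 5.36, 5.33, 5.33 and 5.41 in doxorubicin hearts 1 to 4. The groups overlapped, through control 1 and doxorubicin 4. The difference was -0.13 log2 (SE 0.06, 95% interval -0.26 to -0.0027, limma adjusted p = 0.355), so a fall in signal by as much as that of Ddit3 lay outside the interval. Eif2ak3 had a mean of only 5.43 log2, beside 9.35 for Ddit3, and the interval bounds the probe set signal, not the RNA itself. The spread was small in both groups, with an SD of 0.08 in control and 0.04 in doxorubicin hearts.

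Atf4, the central transcription factor of the pathway, showed the least spread between doxorubicin hearts of the 12 probe sets. Control hearts 1 to 4 gave 12.13, 11.85, 11.89 and 11.96 log2, and doxorubicin hearts 1 to 4 gave 11.45, 11.44, 11.41 and 11.42 log2. Every doxorubicin heart was lower than every control heart, with 0.40 log2 between the nearest hearts. Atf4 RNA fell by 0.53 log2 (SE 0.07, 1.44-fold, limma adjusted p = 0.00316). The 4 doxorubicin hearts were nearly alike, with an SD of 0.016 log2, and only 0.875% of probe sets had a smaller one there. The SD in control hearts was 0.12, where the median over all probe sets was 0.119. The exact permutation p was 0.0286, the smallest that 4 against 4 hearts allow, as for each of the other 5 called probe sets.

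Ddit3 encodes CHOP, which ATF4 induces. It read 9.91, 9.83, 9.66 and 9.89 log2 in control hearts 1 to 4 and 8.89, 8.74, 8.97 and 8.89 log2 in doxorubicin hearts 1 to 4. The groups stood 0.68 log2 apart at their nearest hearts, the widest gap of the 12 probe sets. Ddit3 fell by 0.95 log2 (SE 0.08, 1.93-fold, limma adjusted p = 1.89e-04). It ranked 45 of 31042 probe sets by p, and leaving out each of the 8 arrays in turn kept the call (highest adjusted p 0.00139).

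Atf5 encodes a transcription factor related to ATF4 that takes part in the mitochondrial stress response. Its control hearts 1 to 4 read 7.70, 7.31, 7.42 and 7.02 log2 and its doxorubicin hearts 7.46, 7.15, 7.17 and 7.26 log2. The groups overlapped throughout, with control 1 highest and control 4 lowest of all 8 hearts. The difference was -0.10 log2 (SE 0.13, 95% interval -0.40 to 0.19, limma adjusted p = 0.83).

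**Figure D1:**
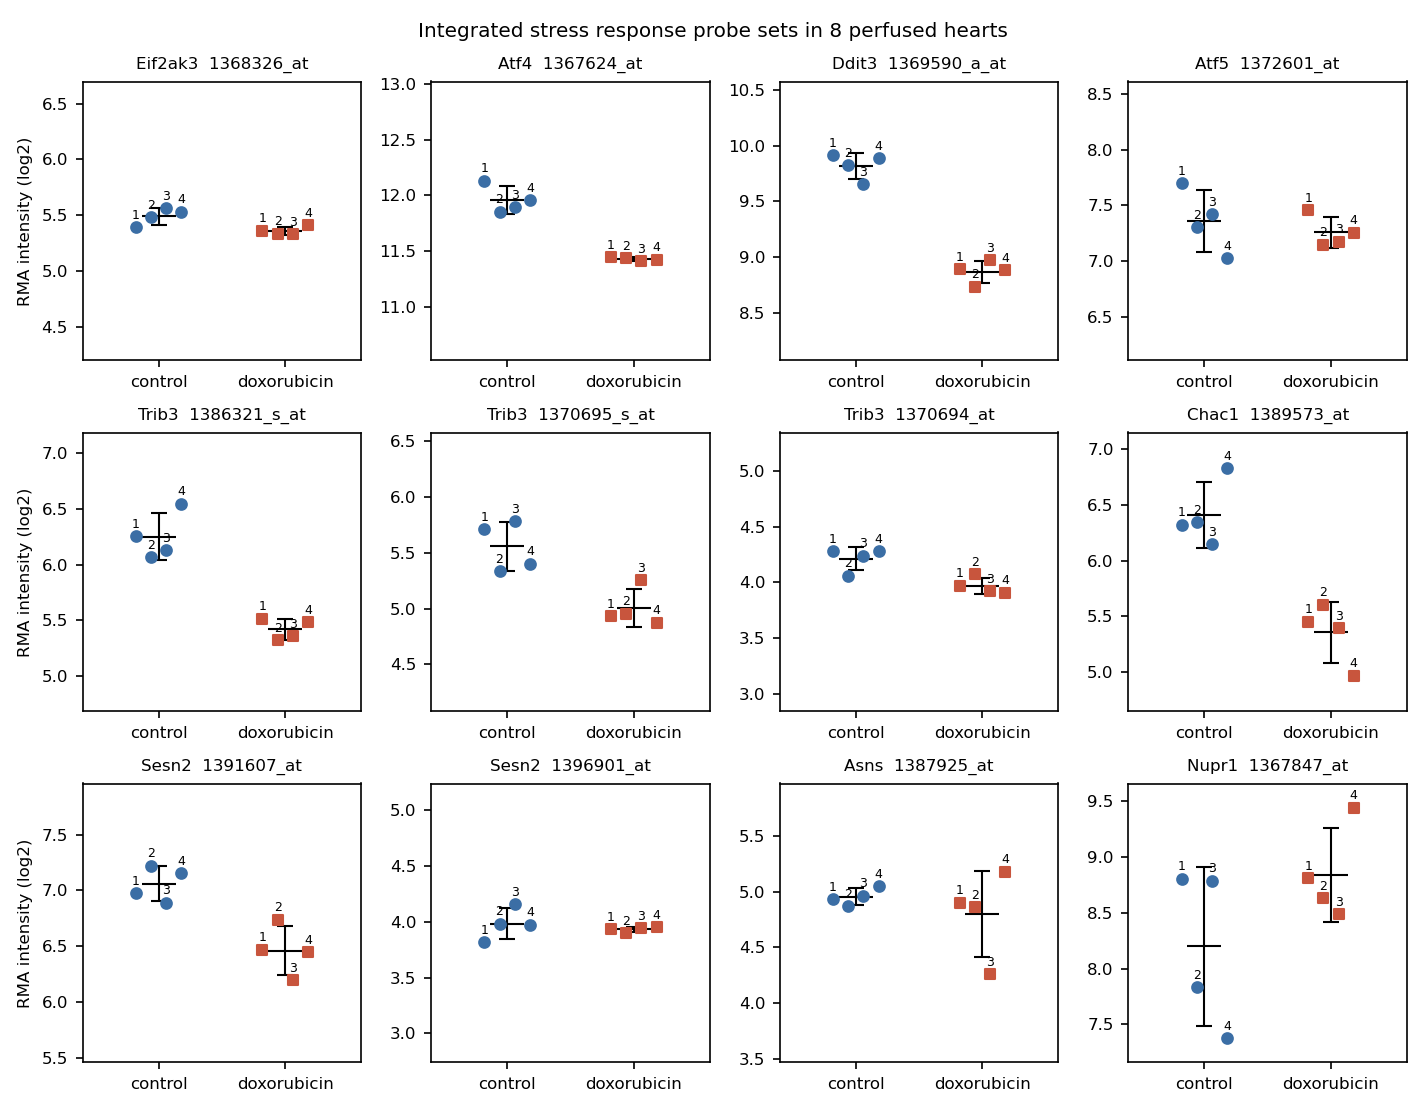
Log2 RMA intensity (vertical axis, each panel spanning the same number of log2 units) of the 12 member probe sets in control hearts (blue circles) and doxorubicin hearts (red squares), each heart marked with its replicate number, with the group mean and SD in black. In the panels of Atf4, Ddit3, Chac1, the 2 brighter Trib3 probe sets and the brighter Sesn2 probe set, all doxorubicin hearts lie below all control hearts.

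Trib3 encodes a pseudokinase that CHOP and ATF4 induce and that binds ATF4 and restrains it. Its brightest probe set, 1386321_s_at, read 6.25, 6.07, 6.13 and 6.54 log2 in control hearts 1 to 4 and 5.52, 5.32, 5.36 and 5.48 log2 in doxorubicin hearts 1 to 4. All doxorubicin hearts were below all control hearts, by at least 0.55 log2. This probe set fell by 0.83 log2 (SE 0.10, 1.78-fold, limma adjusted p = 0.00258).

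The second Trib3 probe set, 1370695_s_at, gave 5.71, 5.34, 5.78 and 5.40 log2 in control hearts and 4.93, 4.95, 5.26 and 4.87 log2 in doxorubicin hearts. It fell by 0.56 log2 (SE 0.12, limma adjusted p = 0.0461), and its groups were separated by 0.08 log2 only. That call was lost without control 1, 3 or 4 or without doxorubicin 1, 2 or 4 (adjusted p up to 0.146), and also after a repeated quantile normalization, after median centring and with an offset of 16 (adjusted p = 0.074). The third, 1370694_at, had a mean of 4.09 log2, under the first quartile of all probe sets (4.16 log2), and stood at -0.25 log2 (SE 0.07, adjusted p = 0.124). Whether probe sets of a gene differed in their response was tested within each array by an exact permutation test, over 4 pairs of probe sets. The difference between the dimmest and the brightest Trib3 probe set was 0.58 log2 (SE 0.11, exact p = 0.0286, adjusted p = 0.114). With 4 pairs adjusted, 1 pair at the smallest possible exact p cannot fall below 0.114, so this test could not call that pair alone.

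Chac1 encodes an enzyme that breaks down glutathione, induced through ATF4. Control hearts 1 to 4 read 6.32, 6.34, 6.14 and 6.83 log2 and doxorubicin hearts 1 to 4 read 5.45, 5.61, 5.40 and 4.97 log2. The groups were 0.54 log2 apart, although hearts of a group spread widely, with SDs of 0.29 in control and 0.27 in doxorubicin hearts, more than in 94.1% and 96.6% of probe sets. Control 4 was highest and doxorubicin 4 lowest. Chac1 fell by 1.05 log2 (SE 0.16, 2.08-fold, limma adjusted p = 0.00945), the lowest value among the members. Leaving out each array in turn kept the call (highest adjusted p 0.0351).

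Sesn2 encodes sestrin 2, an inhibitor of growth signalling through mTORC1 that ATF4 and p53 both induce. Its brighter probe set, 1391607_at, read 6.97, 7.22, 6.89 and 7.16 log2 in control hearts 1 to 4 and 6.47, 6.74, 6.19 and 6.45 log2 in doxorubicin hearts 1 to 4. The groups did not overlap, with doxorubicin 2 only 0.15 log2 below control 3. It fell by 0.60 log2 (SE 0.12, 1.52-fold, limma adjusted p = 0.0293). The call was lost without control 2 or 4 or without doxorubicin 1, 3 or 4 (adjusted p up to 0.0907). The dim probe set, 1396901_at, ranged from 3.82 to 4.16 log2 over the 8 hearts, overlapped and stood at -0.05 log2 (SE 0.07). In the test between both Sesn2 probe sets, the brighter one differed from the dim one by -0.55 log2 (SE 0.17, exact permutation p = 0.0571, adjusted p = 0.114).

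Asns encodes asparagine synthetase, a long-known target of ATF4 when amino acids are short. It read 4.93, 4.87, 4.96 and 5.05 log2 in control hearts 1 to 4 and 4.90, 4.86, 4.26 and 5.18 log2 in doxorubicin hearts 1 to 4. Control hearts were close together, while doxorubicin 3 was lowest and doxorubicin 4 highest of all 8. The SD was 0.39 in doxorubicin hearts, above 99.0% of probe sets, beside 0.07 in control hearts. The difference was -0.15 log2 (SE 0.16, 95% interval -0.52 to 0.21, limma adjusted p = 0.778), and without doxorubicin 3 it was 0.03. The signal was low, with a mean of 4.88 log2 that was above 48.9% of probe sets, so a fall of Asns RNA could be missed.

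Nupr1 encodes a small stress-induced chromatin protein that acts with ATF4 and CHOP. Its log2 values were 8.80, 7.83, 8.79 and 7.37 in control hearts 1 to 4 and 8.81, 8.63, 8.49 and 9.44 in doxorubicin hearts 1 to 4. Controls 2 and 4 were low and doxorubicin 4 was high, while the other 5 hearts lay between 8.49 and 8.81. The spread exceeded that of 99.6% of probe sets in control and 99.2% in doxorubicin hearts, with SDs of 0.71 and 0.42 and a 2.70-fold range over control hearts. The difference was 0.64 log2 (SE 0.33, 95% interval -0.09 to 1.38, limma adjusted p = 0.449), the only one of the 12 above 0. In the same hearts the summed intensity of 4 atrial markers (Myl7, Myl4, Sln and Nppa) was 1214, 10284, 6143 and 1231 in controls 1 to 4 and 5940, 3868, 1441 and 20375 in doxorubicin hearts 1 to 4. The doxorubicin hearts ranked 4, 1, 2, 3 from high to low for Nupr1, and in the same order for the summed atrial, fat, fibroblast and smooth muscle markers. Several single markers of these lists had another order, among them Myh11, Acta2, Col3a1, Lum and Adipoq, with doxorubicin 4 highest for each. The cardiomyocyte, endothelial, macrophage, blood and nerve sums had other orders. Doxorubicin 4 had a fat sum of 3299 (1436 to 1827 in the other doxorubicin hearts), a fibroblast sum of 15545 (11956 to 12355) and a smooth muscle sum of 1642 (806 to 849). None of the atrial, fat, fibroblast and smooth muscle sums had the Nupr1 order in control hearts. Control 1 was highest for Nupr1 and lowest for each of these 4 sums. No marker of these 4 lists was called, and the part of other tissue in the Nupr1 values was not tested.

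**Figure D2:**
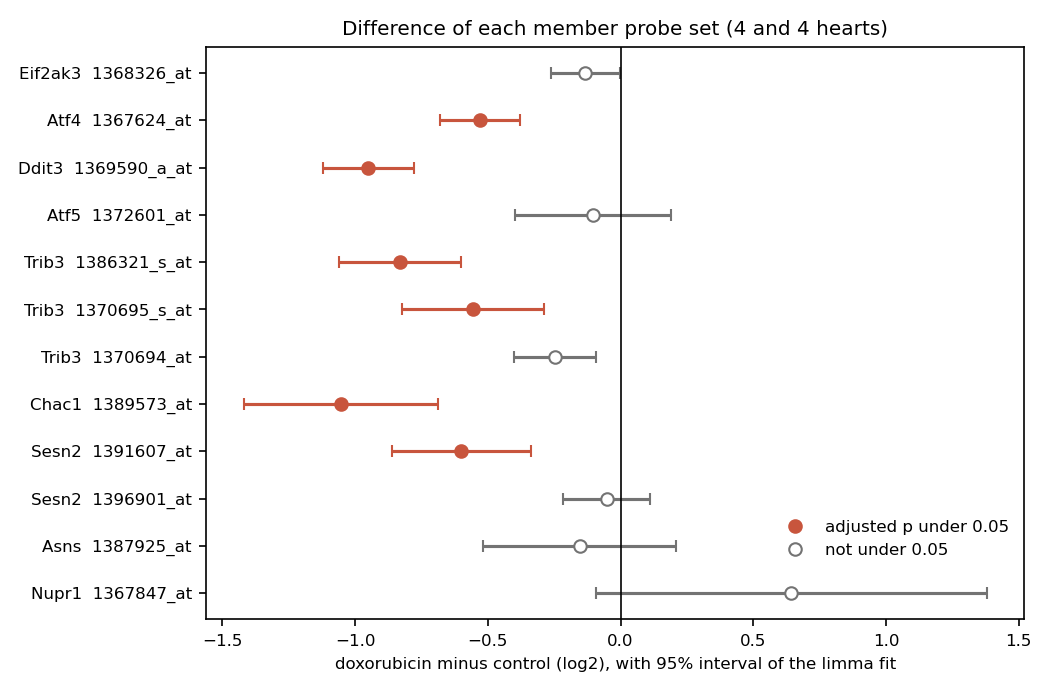
Difference between doxorubicin and control hearts (horizontal axis, log2) of each member probe set, with the 95% interval of the limma fit over 4 and 4 hearts. The 6 red points passed the test and lie between -1.05 and -0.53, and Nupr1 has the widest interval, from -0.09 to 1.38.

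Whether members differed from each other in their response was tested for all 36 pairs of genes, by an exact permutation test on the difference of their brightest probe sets within each array. No pair passed after adjustment over the 36, where the smallest adjusted p was 0.0605, reached by 17 pairs. These 17 stood at the smallest exact p that the design allows (0.0286), so an adjusted p under 0.05 was out of reach for them, and missing it does not show that members responded alike. Ddit3 fell by more than Atf4 in point estimate, and Atf4 minus Ddit3 was 0.42 log2 (SE 0.08, exact permutation p = 0.0286, adjusted p = 0.0605). Ddit3 minus Eif2ak3 was -0.82 log2 (SE 0.10) and Trib3 minus Asns -0.68 log2 (SE 0.19), both with the same p-values. Ddit3 minus Chac1 was 0.10 log2, within the spread between hearts (SE 0.20, exact permutation p = 0.657). The 8 hearts gave no common order: the highest control heart was control 1 for Atf4, Ddit3, Atf5 and Nupr1, control 4 for Chac1, Asns and 2 Trib3 probe sets, and control 2 or 3 for the other 4 probe sets.

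The genes that change the eIF2 switch itself did not pass in the fit reported here, in lists chosen for role with earlier results of these data known. Of 11 genes for the other eIF2 kinases, eIF2 and its exchange factor eIF2B, none was called in limma (3 higher and 1 lower unadjusted), and their median was 0.07 log2. Over all 14217 genes, each read by its brightest probe set, 2.17% were called lower and 0.802% higher, with a median of 0.0063 log2. At an unadjusted p under 0.05, 1005 of these 14217 genes were lower and 1375 higher, and 7375 had differences above 0. These are the background for the unadjusted counts of every list. Eif2s3, a subunit of eIF2, stood at 0.16 (SE 0.05) and Eif2b4, a subunit of eIF2B, at 0.20 (SE 0.07). The other three kinase genes, named for their role after their values were seen, stood at 0.20 (Eif2ak1, the heme-regulated kinase), -0.0072 (Eif2ak2, the double-stranded RNA kinase, whose sign changed under other settings) and -0.08 (Eif2ak4, the amino acid sensor). Of 8 genes for the phosphatase that resets eIF2 and for feedback, none was called (1 higher and 3 lower unadjusted, median 0.0017). Ppp1r15a, which encodes GADD34, the stress-induced phosphatase subunit downstream of CHOP, stood at -0.54 (SE 0.12, adjusted p = 0.0653), and Ppp1r15b, the constitutive subunit, at -0.45 (SE 0.11, adjusted p = 0.0734). All doxorubicin hearts lay below all control hearts for both. Under other limma settings Ppp1r15a was called lower with trend (adjusted p = 0.0408), array weights (0.0463), a replicate block (0.0128) or without control 2 (0.0382). Ppp1r15b was called lower after a repeated quantile normalization (adjusted p = 0.0381).

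Among 14 measured ATF4 partners and related bZIP factors, 2 were called lower and none higher (7 lower and 0 higher unadjusted, median -0.20). Atf3, a stress-induced repressor and ATF4 target, fell by 1.94 log2 (SE 0.13, 3.84-fold, limma adjusted p = 6.21e-05). Jund fell by 0.33 by its brightest probe set (SE 0.07, adjusted p = 0.0355), but a dimmer one, 1387762_s_at, rose by 0.85 (adjusted p = 0.015) and the third stood at -0.09. Jund kept the call without control 2 and lost it without any other single array (adjusted p up to 0.107). Crebbp stood at -0.48 (adjusted p = 0.0607), with another of its probe sets called higher by 0.60, and Cebpd, a C/EBP partner gene, at -0.63 (adjusted p = 0.086).

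Among targets of ATF4 in amino acid supply, 1 gene was called lower in each of 3 lists and none was called higher. Of 14 enzymes of amino acid metabolism, Mthfd2, a mitochondrial enzyme of folate metabolism, fell by 0.34 (SE 0.07, adjusted p = 0.0322), and the median was -0.02 (1 lower and 0 higher unadjusted). Many of these probe sets gave low signal, such as Cth (mean 3.69 log2), Mthfd1l (3.87), Psat1 (4.54) and Phgdh (4.88). Got1 (12.1) and Shmt2 (8.03) were bright. A fall in a dim gene could be missed, so this median does not show that the list was unchanged. Gpt2 stood at 0.13 and Bcat1 at -0.14. Of 10 amino acid transporters, Slc7a1, which carries arginine and lysine, fell by 0.69 (SE 0.10, adjusted p = 0.00595), and a second Slc7a1 probe set fell by 0.64 while another, dim one stood at -0.20. Slc1a4 (-0.38) and Slc7a5 (-0.34) did not pass, and the median was -0.19 (5 lower and 0 higher unadjusted). Of 13 genes for cytosolic aminoacyl-tRNA synthetases and tRNA export, Cars1, which charges the cysteine tRNA, fell by 0.53 (SE 0.09, adjusted p = 0.016), while its other 3 probe sets stood at -0.34 to -0.14. The median of that list was -0.0078 (3 lower and 0 higher unadjusted), with Iars1 at -0.21 and Yars1 at -0.19. Mthfd2 lost the call without control 3 or 4 or doxorubicin 1, 2 or 4 (adjusted p up to 0.113), and Cars1 without doxorubicin 1 or 3 (up to 0.0593).

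**Figure D3:**
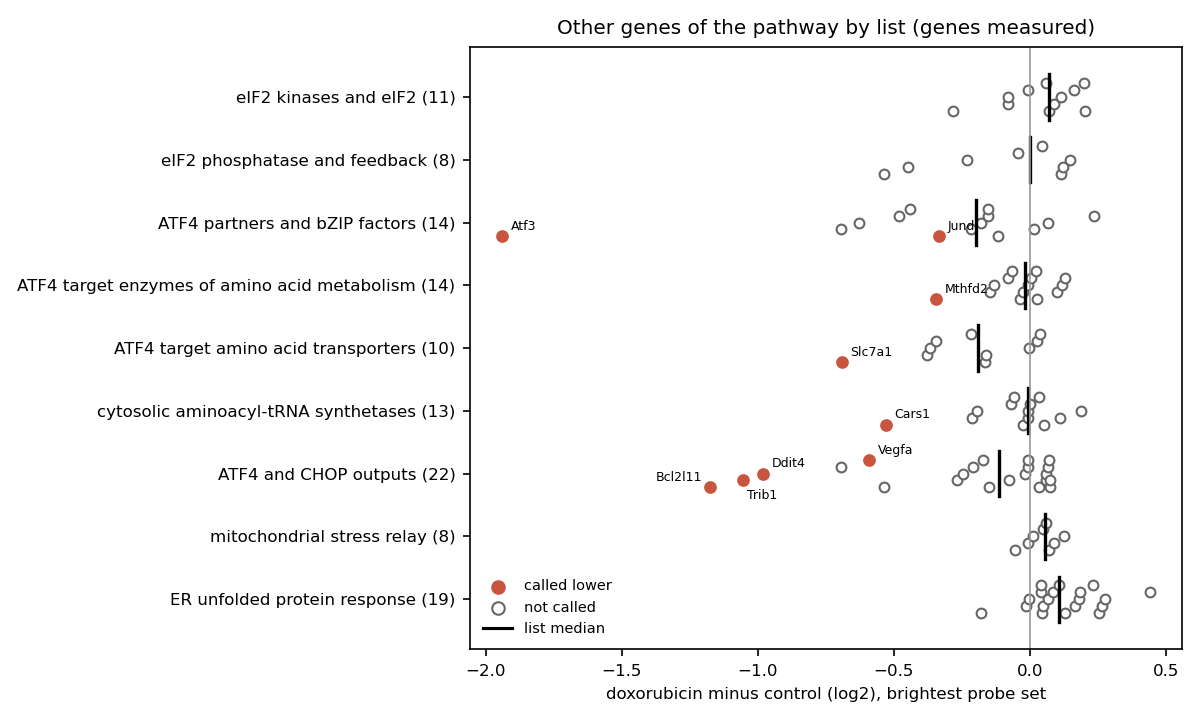
Difference between doxorubicin and control hearts (horizontal axis, log2) of the other genes of the pathway by list, with the number of genes measured in brackets, red where called lower, open where not called, and a black bar at the list median. No gene was called higher, and the medians run from -0.20 to 0.11.

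The list of further outputs of ATF4 and CHOP held 4 called genes of 22 measured, all lower (8 lower and 0 higher unadjusted, median -0.11). This list also took in Trib1, Trib2, Sesn1 and Sesn3, relatives of members that need not be targets of ATF4 or CHOP. Bcl2l11 encodes BIM, a cell death inducer and CHOP target, and fell by 1.17 log2 (SE 0.08, 2.26-fold, limma adjusted p = 6.21e-05), while its 2 dimmer probe sets stood at -0.13 and -0.06. Ddit4, an inhibitor of mTORC1, fell by 0.98 (SE 0.10, adjusted p = 7.43e-04). Trib1, a relative of Trib3, fell by 1.05 (SE 0.22, adjusted p = 0.0425) and Vegfa, a vessel growth factor gene, by 0.59 (SE 0.12, adjusted p = 0.0356). Trib1 lost the call without control 3 or 4 or any doxorubicin heart (adjusted p up to 0.138), and Vegfa without control 1 or 4 or any doxorubicin heart (up to 0.104). Bbc3 stood at -0.27 (adjusted p = 0.0585). In the mitochondrial relay to this pathway none of 8 genes was called (1 higher and 0 lower unadjusted), with Hspd1 at 0.13 and Hspa9 at 0.09.

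The neighbouring unfolded protein response of the endoplasmic reticulum, which raises chaperones through XBP1 and ATF6, held no called gene. Of 19 genes measured none passed limma (6 higher and 0 lower unadjusted), and 16 had differences above 0, with a median of 0.11 log2. Dnajb11 stood at 0.23 (SE 0.06, adjusted p = 0.103) and Hsp90b1, an endoplasmic reticulum chaperone gene, at 0.18 (SE 0.06, adjusted p = 0.192). Over all lists together 115 of 121 genes were measured, of which 9 were called lower and 0 higher (26 lower and 11 higher unadjusted) and the median was -0.0056. The share higher unadjusted was near that of all genes, and the share lower was above it. With lists chosen after earlier results were known, that excess is no independent evidence of a fall across the pathway. The 9 called fell to 4 without doxorubicin 1, and to 5 without control 4 or without any one of doxorubicin 2, 3 and 4. When the level of the hybridization controls was added as a covariate, 2 of them, Atf3 and Bcl2l11, stayed called.

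Genes of like pattern were sought by the root mean square difference between log2 profiles over the 8 arrays, each centred on its own mean. Each gene was read by its brightest probe set, and symbols that begin with LOC or RGD and a number were left out. Nearest to Ddit3 were Glal (0.09 log2), the growth-arrest gene Gadd45a (0.12), the AP-1 gene Junb (0.12), the membrane traffic gene Rab30 (0.12) and Rassf9 (0.13), where the Ddit3 profile itself had a root mean square of 0.48. Nearest to Atf4 were Gimap6 (0.05), Arhgef2 (0.06), 2310002L09Rikl (0.07), Gnpnat1 (0.07) and Uaca (0.08), against 0.28 for the Atf4 profile. Differences of the 5 genes near Ddit3 ran from -1.11 for Gadd45a to -0.83 for Rassf9, and of the 5 near Atf4 from -0.57 for Uaca to -0.47 for 2310002L09Rikl. Falls of like size follow from choosing genes by closeness to these profiles and are not an independent result. None of the other 8 members was among either 5.

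**Figure D4:**
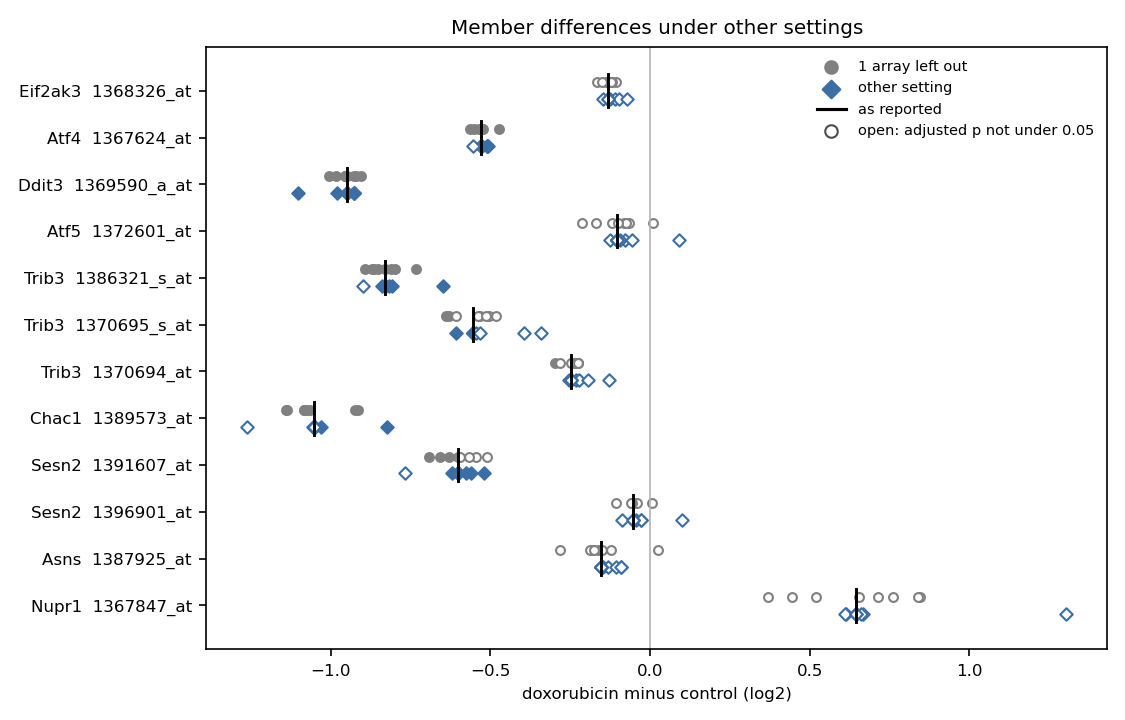
Difference of each member probe set (horizontal axis, log2) with each array left out in turn (grey circles) and under the other settings (blue diamonds), filled where the adjusted p was under 0.05, with the reported value as a black bar. The points of the brightest Ddit3, Atf4, Trib3 and Chac1 probe sets lie below 0 in every setting drawn, and those of Asns, Atf5 and the dim Sesn2 probe set fall on both sides of 0.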

How the data were processed

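The data are 8 Affymetrix arrays of biotin-labelled cRNA, 4 control and 4 doxorubicin hearts, grouped by sample title. The deposited values are probe set intensity values on a linear scale that the authors made with RMA (background correction, joint normalization and probe summary), per the submitters' processing notes; the sources used here do not give the software version. Such values have nearly the same distribution on all arrays, which hides any shift common to the bulk of transcripts. No column was left unused. The log2 of each value was taken with no offset and 57 AFFX controls were set aside. Of 31042 probe sets, 20826 had 1 gene symbol, 436 several and 9780 none. Symbols were updated by gene ID from RefSeq (GRCr8), where 20758 matched and 68 did not, and 14217 genes were each represented by the probe set with the highest mean. Levels of probe sets served only to pick the brightest per gene and to mark dim ones, and arrays have no sequencing depth: their number limits precision.

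Groups were compared with limma 3.58.1 (lmFit, eBayes, no covariate) in R 4.3.3 on all 8 arrays, with Benjamini-Hochberg adjustment over 31042 probe sets, two-sided. Each difference is the doxorubicin mean minus the control mean in log2 units. Exact permutation tests were two-sided over the 70 ways of drawing 4 of 8 arrays. Code was tested on simulated data. Figures used matplotlib 3.10.9 in Python 3.11.15. Alternatives were other normalizations, a dim filter, an offset of 16, trend, robust and weighted fits, a replicate block, 1 probe set per gene, the hybridization covariate and leaving out each array. The members and lists were chosen with earlier results of these data known. Named are all members, each list's called genes and its other 2 genes of smallest p, and the 5 genes nearest to Ddit3 and to Atf4. The 3 further eIF2 kinases were named outside this rule. Listed genes without a probe set of their own symbol were not analysed here. Promoters of all 9 members were matched by symbol in the RefSeq table.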

Additional observations from a re-analysis of the deposited data

Results flagged for a closer look

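In each group of 4 hearts, the gap between the highest or lowest heart and its nearest neighbour was set against the whole range of the group. Of 102 groups tested over the named probe sets, 7 had a share above Dixon's limit for 4 samples, and chance flags about 1 group in 20. None was a group of the 12 member probe sets. Of the 7, 3 lay in doxorubicin 3. Ppp1r15b read 7.14 log2 in that heart, with the other doxorubicin hearts at 7.58 to 7.63. Mthfd2 read 5.64, with the others at 5.43 to 5.45, and Yars1 read 7.36, with the others at 7.52 to 7.55. In control 4, Bcat1 read 4.82 beside 5.05 to 5.07 in the other control hearts, and Bbc3 read 5.66 beside 5.48 to 5.49. Gpt2 read 4.76 in control 1 beside 5.04 to 5.06 in the others, and Rassf9 read 4.71 in doxorubicin 1 beside 4.91 to 4.94.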

How the results depend on the processing

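None of the 12 member probe sets was called higher by limma under any of the 18 other settings (10 alternatives and 8 single arrays left out). Ddit3 was called in all 18, and Atf4 and the brightest Trib3 probe set in all but the hybridization covariate. With that covariate 1 member probe set was called lower, 84 of all probe sets were lower and 8 higher, and 2 listed genes were lower. It also turned the uncalled difference of the dim Sesn2 probe set to 0.099 and that of Atf5 to 0.092. With 1 array left out, Asns ranged from -0.28 to 0.026 (above 0 without doxorubicin 3), the dim Sesn2 probe set from -0.11 to 0.0068 (above 0 without control 3) and Atf5 from -0.21 to 0.0097 (above 0 without control 1). Eif2ak2, at -0.0072, read 0.015 with median centring, 0.012 with array weights, 0.044 with the covariate and -0.0373 to 0.0213 with 1 array left out. All probe sets called higher numbered 350 with array weights, 133 over 1 probe set per gene (fewer features tested) and 76 to 395 with 1 array left out. Listed genes called lower numbered 4 to 10 with 1 array left out and 12 with array weights. Some calls were gained: Ppp1r15a, Ppp1r15b, Crebbp, Cebpd and Bbc3 were each called lower in at least 1 other setting, and the dim Trib3 probe set without control 2. With the replicate number as a replicate block, 121 probe sets were called higher and 5 listed genes lower, and Chac1 lost its call (adjusted p = 0.0522). Same-numbered hearts did not deviate together (r from -0.184 to 0.0592 across probe sets, and no heart correlated best with its own number), so the numbers were not taken as pairs. Causes were not tested. With 4 arrays a group, Eif2ak3, Atf5, Asns and Nupr1 did not pass, which does not show that they were unchanged. The 95% limma intervals ran as far as -0.26 log2 for Eif2ak3, -0.40 for Atf5, -0.52 for Asns and 1.38 for Nupr1.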
